A study of Mus musculus with 24 samples.

Results

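Organoids grown from mouse salivary glands were compared for how the effect of irradiation on gene expression differed between 14 and 90 days. The comparison takes the irradiation (IR) effect at day 90, IR minus sham, and subtracts from it the same effect at day 14, and this difference is called the interaction of IR with day. It rests on the passage 1 cultures, which make up 12 of the 24 libraries of the series, 3 in each of 4 groups: sham at day 14, IR at day 14, sham at day 90 and IR at day 90. All of the mice were of the C57BL/6 strain, and the groups differed in irradiation or sham irradiation and in the days that passed before the glands gave their stem and progenitor cells. The cells were grown as organoids, small epithelial structures, in Matrigel with EGF, FGF2, insulin, dexamethasone and Y-27632 in the medium of every group. Radiation dose and the age and sex of the mice were not stated in any source used. The labels number the replicates without naming an animal or a culture for each, and a p-value therefore speaks of the spread among the libraries, which may be technical.

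The salivary gland is built of acini, which secrete saliva, and of ducts, whose outer basal cells carry keratins 5 and 14 and whose inner luminal cells carry keratins 8 and 18. Radiation damages secretion, and basal and ductal cells are widely used as the source of organoids in work on repair. Stratified epithelia pass from basal cells to a cornified layer, with keratins 6 and 16 appearing under stress and wounding, and NRF2 is the transcription factor that turns on glutathione and other antioxidant genes. The title of the series names Bmp4, a secreted ligand of the BMP family, and the question here was which gene groups kept, lost or turned round their response to irradiation over time.

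The libraries were made from the 3′ ends of transcripts and held 1151608 to 3189466 counts on genes. Levels are given as CPM, that is counts divided by the size of their library after the TMM correction for composition, and differences as log2 fold changes of IR against sham. The ribosomal RNA gene Gm42418 took 21.7% to 25.9% of the counts in the day 14 libraries, 26.9% to 29.0% in the IR libraries of day 90 and 28.6%, 15.9% and 11.8% in the sham libraries of day 90. Defining fibroblast genes were at or near 0, with 4 of 13 markers without a count in passage 1 (Col3a1, Pdgfrb, Dpt and Twist1), and the summed level of the list was 210 to 312 CPM in sham and 22.7 to 88.6 in IR at day 14, and 153 to 179 in sham and 63.3 to 90.2 in IR at day 90, with Gas1 the most abundant of them. Immune markers, of which Lyz2 was the most abundant and 7 of 20 had no count, summed to 9.45 to 14 CPM in sham and 19.2 to 55.8 in IR at day 14, with ranges of 1.13 to 21.5 and 4.64 to 38.3 at day 90, and the part of either list in the results was not tested. The 7 epithelial markers summed to 4410 to 9490 CPM. In such bulk samples fewer cells of a type and less RNA per cell cannot be told apart.

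Irradiation changed 36 of 10563 tested genes at day 14, 31 of them higher (0.293%) and 5 lower (0.0473%), and 5 genes at day 90, 3 higher (0.0284%) and 2 lower (0.0189%), at an adjusted p under 0.05 in the quasi-likelihood test of edgeR with Benjamini-Hochberg adjustment. In either direction these are 0.341% and 0.0473% of the genes. With scaling to total counts in place of TMM the day 90 calls were 3 higher and 17 lower, and with each of the 12 libraries left out in turn there were 0 to 146 calls at day 14 and 0 to 25 at day 90. With the Gm42418 share in the model 94 genes were called at day 14 and 0 at day 90. The interaction itself was called for 2 genes (0.0189% of those tested), Tmprss4 and Car6, both with an irradiation effect that went from positive at day 14 to negative at day 90. No gene was called in the other direction, and none by DESeq2, which called 24 genes, all with a lower effect at day 90 than at day 14. Without the filter on low counts edgeR called 196 genes, 44 of them in the other direction.

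At an unadjusted p under 0.05 the interaction took in 857 genes (8.11%), 356 in the positive direction (3.37%) and 501 in the negative (4.74%). Sorted by the sizes of the effects, with 0.5 log2 units as the limit, 122 of the 501 had opposite signs at the days (reversal), 110 had an effect at day 14 that was smaller at day 90 (fading), and 165 had one mainly at day 90 (late). Among the 356 the numbers were 65, 96 and 110. The IR libraries lay above every sham library at day 14 and below every one at day 90 for 80 genes (0.757%), and the opposite was seen for 22 (0.208%). On the other side, 153 genes (1.45%) had IR above sham without overlap at both days and 167 (1.58%) had it below. Across the 10563 genes the effects at the days had a Pearson correlation of 0.24 and a Spearman correlation of 0.20, with no library shared between the days.

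Tmprss4 (ENSMUSG00000032091), a membrane-bound serine protease of epithelia, had the clearest change of sign. Its level was 41.2, 34.3 and 43.6 CPM in sham and 176, 132 and 69.4 in IR at day 14, against 85.8, 93.3 and 88.2 in sham and 22.2, 43.0 and 52.9 in IR at day 90. The groups did not overlap at either day, and the means ± SD (n = 3) were 39.7 ± 4.82 and 126 ± 53.4 at day 14, and 89.1 ± 3.84 and 39.3 ± 15.7 at day 90. The log2 fold change was 1.66 at day 14 and -1.20 at day 90, so that the interaction was -2.85 (SE 0.39, 95% interval -3.66 to -2.05), with an adjusted p of 0.00222 by edgeR. The sham level itself differed between the days, with every sham library of day 90 above every one of day 14.

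Car6 (ENSMUSG00000028972), the carbonic anhydrase that salivary glands secrete into saliva, had the other call. Sham libraries held 13.5, 5.24 and 11.3 CPM and IR libraries 76.0, 122 and 26.3 at day 14, and at day 90 sham held 28.2, 11.6 and 9.83 and IR 6.19, 2.64 and 3.48. Each IR library was above the sham range at day 14 and below it at day 90. The effects were 2.87 and -1.89 log2 units, and the interaction was -4.76 (SE 0.78, 95% interval -6.37 to -3.15), with an adjusted p of 0.0282 by edgeR. This call was lost when only the passage 1 libraries were fitted (adjusted p 0.0701), and when any of 8 libraries was left out, all 3 sham and replicates 1 and 2 of IR at day 14, sham replicate 1 and IR replicates 2 and 3 at day 90 (adjusted p 0.0574 to 0.132), while the value lay between -5.23 and -4.20 over all 12 libraries left out in turn.

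**Figure D1:**
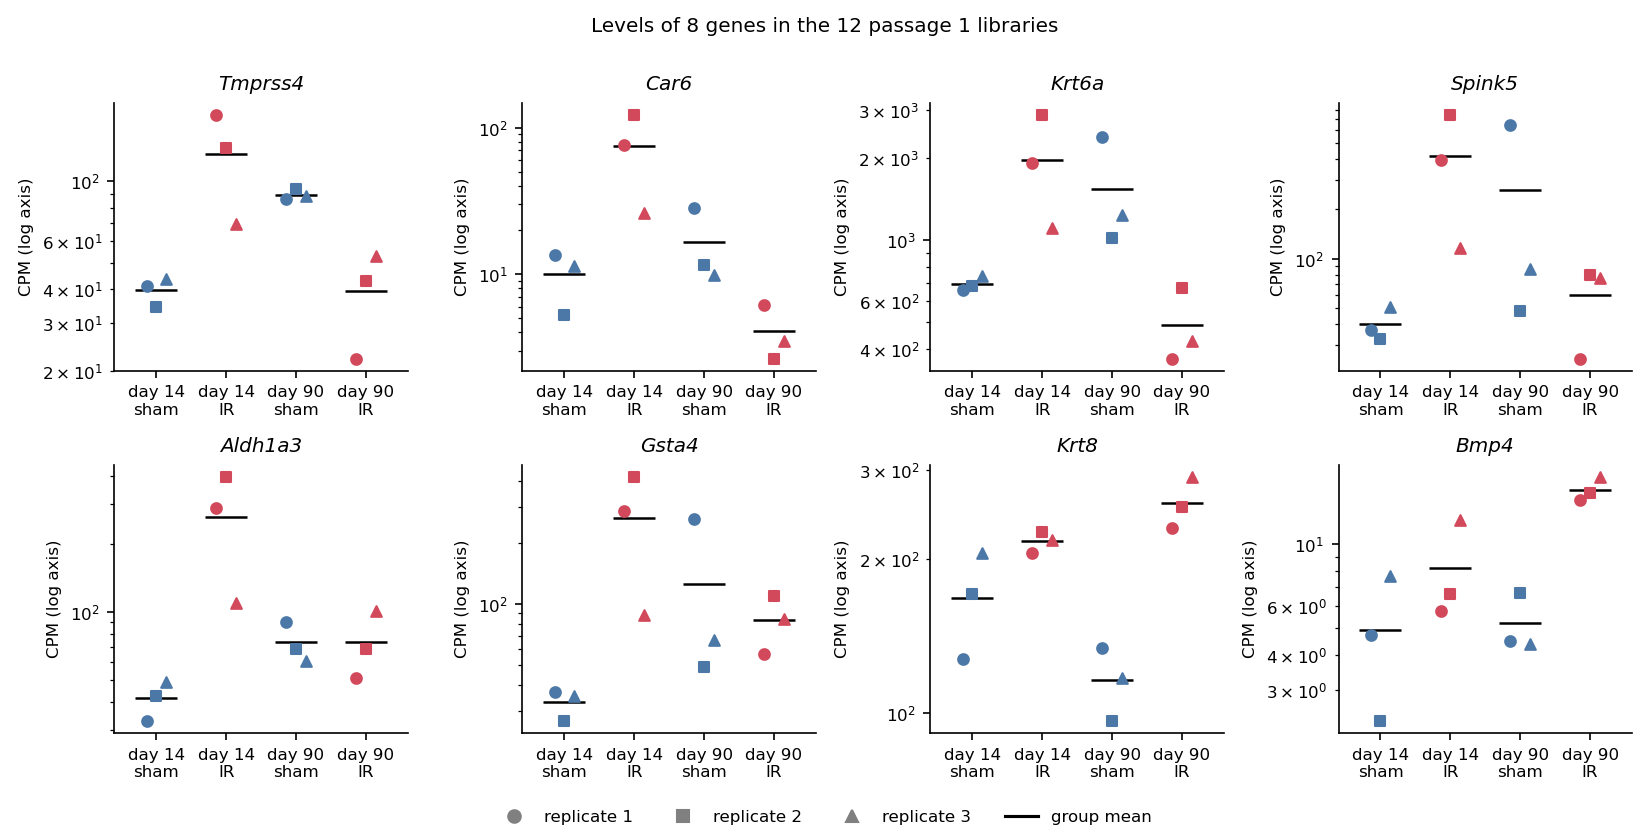
Level in CPM (log axis) of 8 genes in each passage 1 library, by group, with the replicate number as the symbol and the group mean as a line. Tmprss4 and Car6 have IR above sham at day 14 and below it at day 90. The day 14 IR replicate 3 lies nearest to sham for all but Krt8 and Bmp4. The day 90 sham replicate 1 is high for Krt6a, Spink5 and Gsta4.

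Genes of squamous differentiation and the cornified envelope had the most negative median interaction among the 34 lists with at least 3 tested members. Of 30 listed genes 21 were tested, and their median effect was 2.07 at day 14, -1.06 at day 90 and -3.17 for the interaction, where the median over all tested genes was -0.01, 0.00 and 0.01. At an unadjusted p under 0.05, 13 of the 21 had a negative interaction and 0 a positive one, beside 4.74% and 3.37% of all tested genes. At day 14, 13 were higher and 0 lower by that measure, beside 5.5% and 5.48% of all tested genes. Of the 13, 2 were called, where 0.293% of all tested genes were called higher. At day 90, 1 was higher and 3 lower, beside 5.66% and 7.02%, none called. Of the 21, 17 went from a positive to a negative value and 4 kept their sign, beside 2282 and 5884 of the 10563 tested genes. None of the list passed the adjusted test of the interaction in edgeR, and 5 did in DESeq2, which called 24 of the 10563 tested genes.

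Krt6a, a stress keratin, was the most abundant of these. Its level was 660, 680 and 741 CPM in sham and 1916, 2883 and 1114 in IR at day 14, and 2385, 1021 and 1240 in sham and 368, 668 and 429 in IR at day 90. It did not overlap between IR and sham at either day, and its interaction was -3.17 (SE 0.62, adjusted p 0.0935 by edgeR). For its partner Krt16 the day 14 values were 17.6, 30.3 and 26.7 CPM in sham and 197, 368 and 49.2 in IR, and the day 90 values 203, 6.34 and 20.2 in sham and 10.3, 33.04 and 18.8 in IR. The day 90 groups of Krt16 overlapped, with sham replicate 1 alone above the IR range. Sbsn, a secreted protein of upper epidermal layers, held 32.4, 18.0 and 24.1 CPM in sham and 124, 130 and 32.4 in IR at day 14, then 70.5, 28.5 and 29.5 in sham and 15.5, 17.8 and 23.7 in IR at day 90. Its day 90 groups stood apart and its day 14 groups met at 32.4 CPM, and the interaction was -3.08 (SE 0.65, adjusted p 0.114).

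Cdsn, the adhesive protein of corneodesmosomes, was among the genes called higher at day 14 (adjusted p 0.046 by edgeR), with 0, 1.16 and 1.03 CPM in sham and 21.6, 35.9 and 3.28 in IR. At day 90 it held 11.8, 1.76 and 2.85 CPM in sham and 0, 1.98 and 3.48 in IR, which overlap. S100a8, a calcium-binding protein of stressed keratinocytes and of neutrophils, was also called at day 14, with 2.03, 2.33 and 4.11 CPM in sham and 35.6, 74.6 and 15.9 in IR. Its day 90 levels were 11.3, 3.52 and 5.95 CPM in sham and 1.03, 7.93 and 1.39 in IR, again with overlap. The interactions were -6.05 (SE 1.37) for Cdsn and -4.72 (SE 1.07) for S100a8, each with an adjusted p of 0.144. Spink5, the inhibitor of epidermal kallikreins, held 37.1, 32.6 and 50.8 CPM in sham and 399, 743 and 115 in IR at day 14, then 650, 47.9 and 86.4 in sham and 24.7, 79.3 and 75.8 in IR. Its sham replicate 1 at day 90 was near the level of the IR libraries of day 14.

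That library, sham replicate 1 at day 90, was high for the squamous list as a whole. The mean log2 CPM of the 21 genes was 5.05 in it, against 2.90 and 3.38 in the other sham libraries and 2.51, 3.19 and 3.34 in IR at day 90. At day 14 the means were 2.76, 2.96 and 3.33 in sham and 4.93, 5.41 and 3.68 in IR, without overlap. With sham replicate 1 of day 90 left out the median interaction of the list was -2.06, the interaction of Spink5 was -3.55, and that of Krt6a was -2.72. The values with IR replicate 3 of day 14 left out were -3.51 for the list median and -3.45 for Krt6a, whose adjusted p was then 0.0195. Over the whole interaction, leaving out that IR library gave 23 called genes, and leaving out the sham library gave 1, Tmprss4 (-2.88, adjusted p 0.00621).

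The promoters of the squamous list were read for the letters of 3 motifs, since its members moved together. The 250 bases before the start of transcription come from RefSeq on GRCm38.p6, and both strands were searched for TGANTCA (AP-1), TGACNNNGC (the antioxidant element bound by NRF2) and AACNGGTT (grainyhead-like factors). AP-1 letters stood in 8 of 16 windows of the 14 squamous genes with an entry (50%), in 3 of 26 windows of the NRF2 list (11.5%), in 4.44% of the 10574 windows of tested genes and in 6.75% of all 32851 windows. Windows with the antioxidant element made up 19.2% of the NRF2 list (5 of 26) and 11.9% of those of tested genes. Grainyhead letters were found in 1 of 16 squamous windows (6.25%) and 1.64% of those of tested genes. The window of Sbsn (chr7:30751221-30751470, plus strand) has AP-1 letters 119 bases before the start, and that of Srxn1 (chr2:152105274-152105523, plus strand), an antioxidant gene described below, has them 102 and 45 bases before it, all in capitals, while the window of Car6 (chr4:150201136-150201385, minus strand), the called secretory gene, holds none of the 3 motifs. The antioxidant element was searched only as TGACNNNGC, so other forms of it were not counted. A match is a description of the letters and shows no binding.
Sbsn: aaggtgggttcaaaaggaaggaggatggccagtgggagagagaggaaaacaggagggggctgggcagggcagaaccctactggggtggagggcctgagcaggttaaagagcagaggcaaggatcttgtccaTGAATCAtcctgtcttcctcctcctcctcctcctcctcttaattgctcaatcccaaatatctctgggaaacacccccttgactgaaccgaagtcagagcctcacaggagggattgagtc
Srxn1: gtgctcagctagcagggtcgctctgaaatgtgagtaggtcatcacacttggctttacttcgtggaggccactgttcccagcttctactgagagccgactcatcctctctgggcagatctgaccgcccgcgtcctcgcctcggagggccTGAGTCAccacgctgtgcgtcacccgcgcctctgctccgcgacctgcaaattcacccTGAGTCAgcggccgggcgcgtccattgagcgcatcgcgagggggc
Car6: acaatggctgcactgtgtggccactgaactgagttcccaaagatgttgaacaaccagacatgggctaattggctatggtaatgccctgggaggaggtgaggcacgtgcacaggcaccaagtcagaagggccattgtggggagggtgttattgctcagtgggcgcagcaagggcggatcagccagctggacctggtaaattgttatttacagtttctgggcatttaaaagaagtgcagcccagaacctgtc

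**Figure D2:**
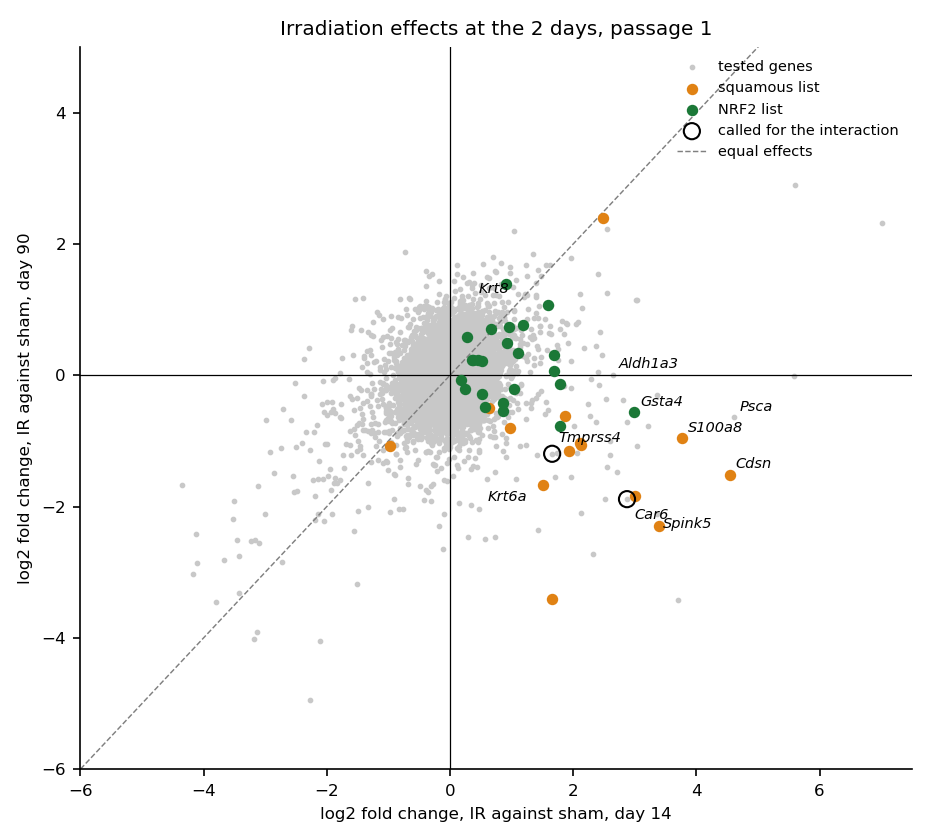
Irradiation effect at day 14 (horizontal) against day 90 (vertical), both as log2 fold change of IR against sham, for the 9431 tested genes with at least 5 CPM on average in passage 1, of which 1 lies outside the axes. Most squamous genes lie at the lower right, where the effect is positive at day 14 and negative at day 90, and most NRF2 genes lie to the right, between the zero line and the line of equal effects or just below zero.

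Antioxidant and glutathione genes of the NRF2 list had positive effects at day 14 and a median nearer to 0 at day 90. Of 24 tested members 11 were higher at day 14 at an unadjusted p under 0.05 and 0 lower, beside 5.5% and 5.48% of tested genes. Of the 11, 5 were called, where 0.293% of all tested genes were called higher. At day 90, 4 were higher and 0 lower, beside 5.66% and 7.02%, none called. The list's median effect was 0.89 at day 14 and 0.22 at day 90, and the median interaction was -0.49. That last value was -0.31 without sham replicate 1 of day 90, -0.78 without IR replicate 3 of day 14 and -0.92 with the Gm42418 share in the model. For the interaction 7 were negative and 0 positive at the unadjusted level, beside 4.74% and 3.37%, none called. Its mean log2 CPM was 6.24, 6.32 and 6.46 in sham and 7.38, 7.64 and 6.81 in IR at day 14, and 7.04, 6.24 and 6.44 in sham and 6.52, 6.87 and 6.87 in IR at day 90, where sham replicate 1 was again the highest.

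Srxn1, which restores oxidised peroxiredoxins, held 17.6, 41.9 and 34.9 CPM in sham and 134, 111 and 62.4 in IR at day 14, and was called (log2 fold change 1.69, adjusted p 0.0265 by edgeR). At day 90 it held 42.9, 29.2 and 35.2 CPM in sham and 22.2, 33.7 and 56.4 in IR, and the log2 fold change was 0.06. Gclc, the catalytic subunit of the enzyme that starts glutathione synthesis, was called as well, with 217, 200 and 255 CPM in sham and 756, 990 and 416 in IR at day 14. Its day 90 levels, 387, 181 and 243 CPM in sham and 248, 381 and 368 in IR, overlapped. Gsta4, a glutathione transferase that acts on lipid peroxidation products, was called at day 14 with 37.1, 26.8 and 35.4 CPM in sham and 286, 419 and 88.1 in IR. At day 90 its sham libraries held 260, 49.3 and 66.7 CPM and its IR libraries 56.7, 110 and 84.2. The interactions were -1.63 (SE 0.45) for Srxn1, -1.38 (SE 0.45) for Gclc and -3.55 (SE 0.81) for Gsta4, and the adjusted p were 0.253, 0.385 and 0.144. Slc48a1, a haem transporter outside the list, and Gpx2, an epithelial glutathione peroxidase in it, were also called at day 14 (1.70 and 1.04) and had effects of 0.04 and -0.21 at day 90.

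A few genes called at day 14 were named because their interactions were among the smallest, so that like effects at the days follow from that choice. G6pdx, the entry enzyme of the pentose phosphate pathway, was called at day 14 with 29.0, 26.8 and 26.7 CPM in sham and 60.1, 83.1 and 46.4 in IR. At day 90 it held 42.3, 29.9 and 33.1 CPM in sham and 50.5, 52.2 and 75.8 in IR, and did not overlap at either day. Its effects were 1.18 and 0.77, and the interval of the interaction was -1.05 to 0.23. Cat, catalase, which is in the antioxidant list and was chosen after its values were seen, had effects of 1.60 and 1.08 with an interaction interval of -1.60 to 0.56, and neither effect was called. Cyp1b1, a cytochrome P450 outside the list, was called at day 14 (1.45) and had an effect of 1.05 at day 90, with IR at 135, 174 and 207 CPM and sham at 77.9, 78.9 and 90.5. Ablim1, an actin-binding protein called at day 14, had effects of 1.47 and 0.74 and an interaction interval of -1.62 to 0.17.

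The list of acinar and secretory genes was mixed. Of 22 listed genes 10 were tested, with a median effect of -0.16 at day 14 and -1.44 at day 90 and a median interaction of -1.01, which was -1.61 without sham replicate 3 of day 14, -1.54 without IR replicate 1 of day 14 and -1.61 without IR replicate 1 of day 90. At the unadjusted level 3 had a negative interaction and 0 a positive one, beside 4.74% and 3.37% of tested genes. Of the 3, Car6 was called, where 0.0189% of all tested genes were called for a negative interaction. Mucl2, a mucin-like secretory protein, held 19.6, 5.82 and 18.0 CPM in sham and 78.4, 146 and 30.0 in IR at day 14, then 55.3, 10.6 and 19.9 in sham and 11.3, 6.61 and 3.48 in IR at day 90. Its day 14 groups stood apart and its day 90 groups overlapped only between the lowest sham and the highest IR library (interaction -4.41, SE 0.88, adjusted p 0.114). Prol1, a proline-rich salivary protein, had effects of 2.55 and -1.40 and an interaction of -3.95 (SE 1.03, adjusted p 0.222), with IR at 12.4, 0.661 and 0 CPM at day 90. Without the IR library at 12.4 CPM, replicate 1, the value was -7.58 (adjusted p 0.037 by edgeR). Outside the list, Pigr, the receptor that carries IgA into saliva, held 1.35, 1.75 and 4.11 CPM in sham and 7.21, 16.1 and 7.97 in IR at day 14, and 10.7, 8.80 and 4.92 against 2.58, 3.30 and 2.09 at day 90. It was low in level and did not overlap at either day, with an interaction of -3.51 (SE 0.79, adjusted p 0.144).

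Other secretory genes did not share that course. Aqp5, the water channel of acinar cells, held 85.1, 34.3 and 42.1 CPM in sham and 20.2, 25.5 and 27.2 in IR at day 14, and 36.1, 60.6 and 43.7 against 65.0, 31.1 and 17.4 at day 90. Its IR libraries lay below sham at day 14 and overlapped at day 90, and its interaction was 0.85 (SE 0.60). Pip, a secreted prolactin-induced protein, had effects of -0.76 and -2.04, with IR at 115, 50.9 and 10.4 CPM and sham at 222, 260 and 256 at day 90. Bhlha15 and Amy1, the defining acinar regulator and enzyme, were not among the tested genes.

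**Figure D3:**
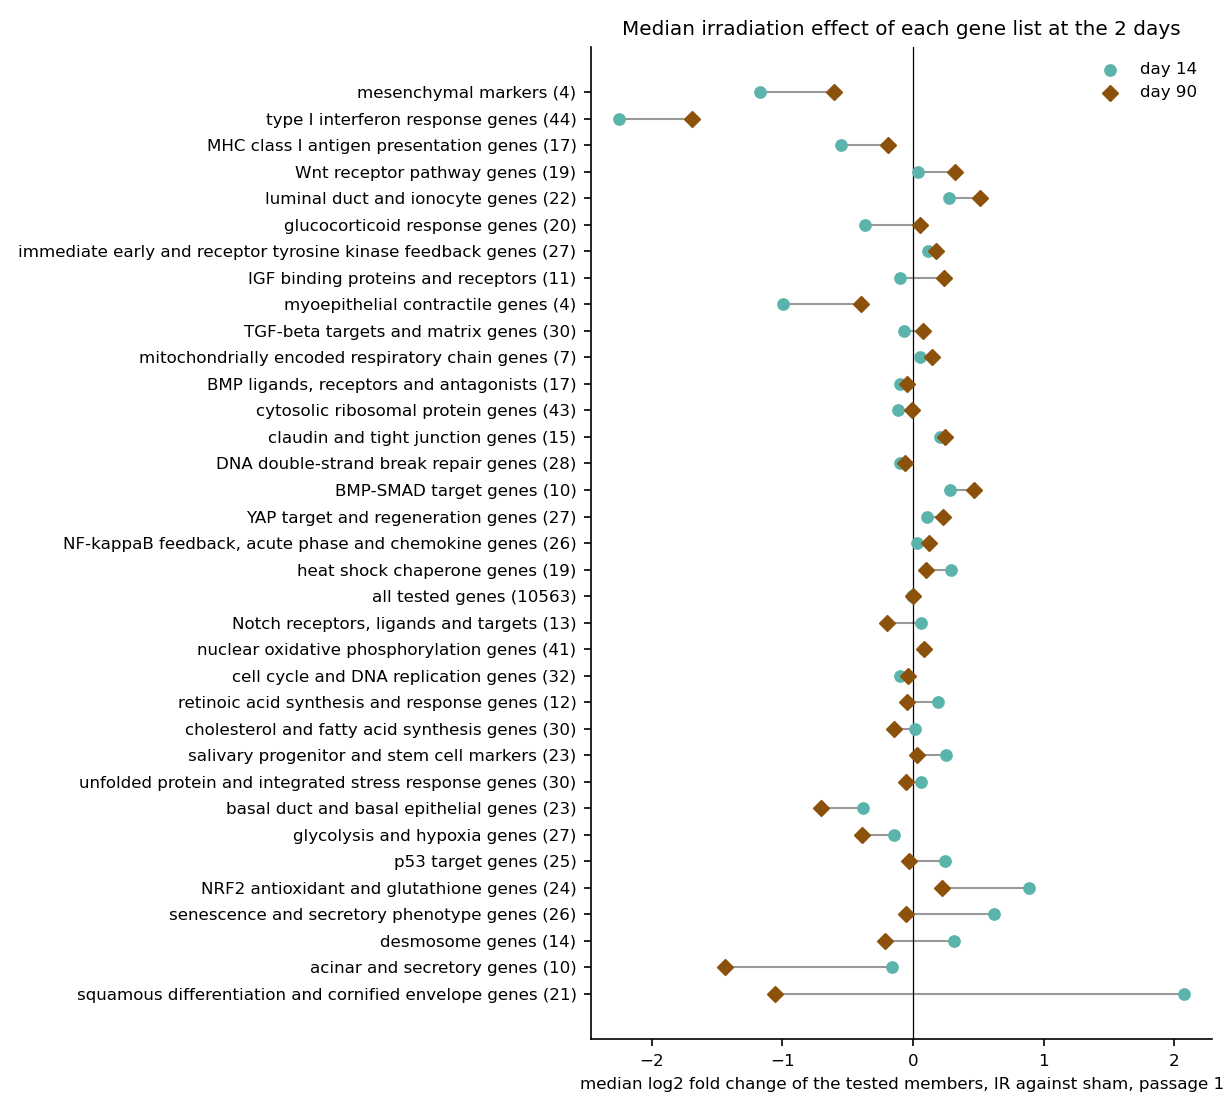
Median log2 fold change of IR against sham over the tested members of each gene list at day 14 (circles) and day 90 (diamonds), sorted by the median interaction, with the number tested in brackets. The squamous list moves from 2.07 to -1.06, the NRF2, senescence and desmosome lists move toward or past 0, and the interferon list is at -2.25 and -1.69.

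Desmosome genes, which hold neighbouring epithelial cells together, had a positive median at day 14 and a negative one at day 90. All 14 were tested, with medians of 0.31 at day 14, -0.22 at day 90 and -0.55 for the interaction. At the unadjusted level 5 had a negative interaction and 0 a positive one, beside 4.74% and 3.37% of tested genes. At day 14, 4 were higher and 1 lower at that level, beside 5.5% and 5.48%. At day 90, 0 were higher and 5 lower, beside 5.66% and 7.02%, and none was called at either day. The mean log2 CPM at day 14 was 6.74, 6.72 and 6.70 in sham and 7.20, 7.29 and 6.78 in IR, without overlap. Dsg3, a desmosomal cadherin of basal layers, held 75.6, 64.6 and 62.6 CPM in sham and 90.9, 99.2 and 74.5 in IR at day 14, then 120, 60.6 and 61.3 in sham and 25.3, 36.3 and 30.6 in IR at day 90. Its day 90 groups stood apart, and its interaction was -1.76 (SE 0.48, adjusted p 0.243). Pkp3, a plakophilin, had effects of 0.14 and -1.14, and Dsp, the desmoplakin that anchors keratin, -0.05 and -0.90. Sham replicate 1 of day 90 had the highest mean log2 CPM of the list among the day 90 libraries (7.23, with 6.57 and 6.64 in the other sham libraries and 6.39, 6.50 and 6.50 in IR), and without it the list's median interaction was -0.39.

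Genes of the senescence list, which mixes cell cycle inhibitors with secreted factors, had medians of 0.62 at day 14 and -0.05 at day 90 over 26 tested members. The mean log2 CPM was 4.16, 5.33 and 4.66 in sham and 5.29, 5.88 and 5.06 in IR at day 14, which overlap. The median interaction was -0.52. It was -0.94 without sham replicate 2 of day 14 and -0.31 without IR replicate 2 of day 14. At day 14, 10 were higher and 1 lower at the unadjusted level, beside 5.5% and 5.48% of tested genes, and at day 90, 1 was higher and 0 lower, beside 5.66% and 7.02%, none called at either day. Cdkn1a, the p53-controlled inhibitor p21, held 229, 240 and 188 CPM in sham and 461, 531 and 273 in IR at day 14, and 216, 276 and 338 against 285, 272 and 199 at day 90. Its groups stood apart at day 14 and overlapped at day 90, and its interaction was -1.08 (SE 0.38, adjusted p 0.403). Serpinb2, a plasminogen activator inhibitor, had an effect of 2.27 at day 14 and -0.62 at day 90, and Il1a, an alarm cytokine of epithelia, 2.59 and -1.21. The 25 tested p53 targets had a median of 0.24 at day 14 and -0.03 at day 90, and Mdm2, the p53 antagonist, had effects of 0.24 and 0.62. For 32 cell cycle and replication genes the medians were -0.10 and -0.04 with 0 members at the unadjusted level in either direction, for the interaction and at each day. Mki67, the proliferation marker, held 73.1 to 227 CPM, with overlapping groups at both days.

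Among markers of salivary progenitors 3 of 23 tested genes were called higher at day 14, beside 0.293% of all tested genes. Aldh1a3, which makes retinoic acid and marks a progenitor fraction, held 33.1, 42.5 and 49.3 CPM in sham and 288, 395 and 109 in IR at day 14, then 90.3, 69.0 and 61.1 in sham and 51.0, 68.7 and 102 in IR at day 90. The effect was 2.65 at day 14 (adjusted p 0.00207 by edgeR) and 0.01 at day 90, and the interaction of -2.64 (SE 0.49) had an adjusted p of 0.0708. Psca, a surface antigen of epithelial progenitors, held 7.43, 0.582 and 3.59 CPM in sham and 101, 164 and 16.4 in IR at day 14, and 18.1, 5.98 and 5.17 against 0, 6.61 and 11.8 at day 90. Procr, the protein C receptor, went from an effect of 2.30 at day 14 to -0.06 at day 90. For these 3 genes, chosen by their day 14 call, the groups stood apart at day 14 and overlapped at day 90. IR lay above sham without overlap at day 14 for 934 of the 10563 tested genes. Over the 23 genes the medians were 0.26 and 0.03, and for the interaction 3 were negative and 0 positive at the unadjusted level, beside 4.74% and 3.37% of tested genes.

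**Figure D4:**
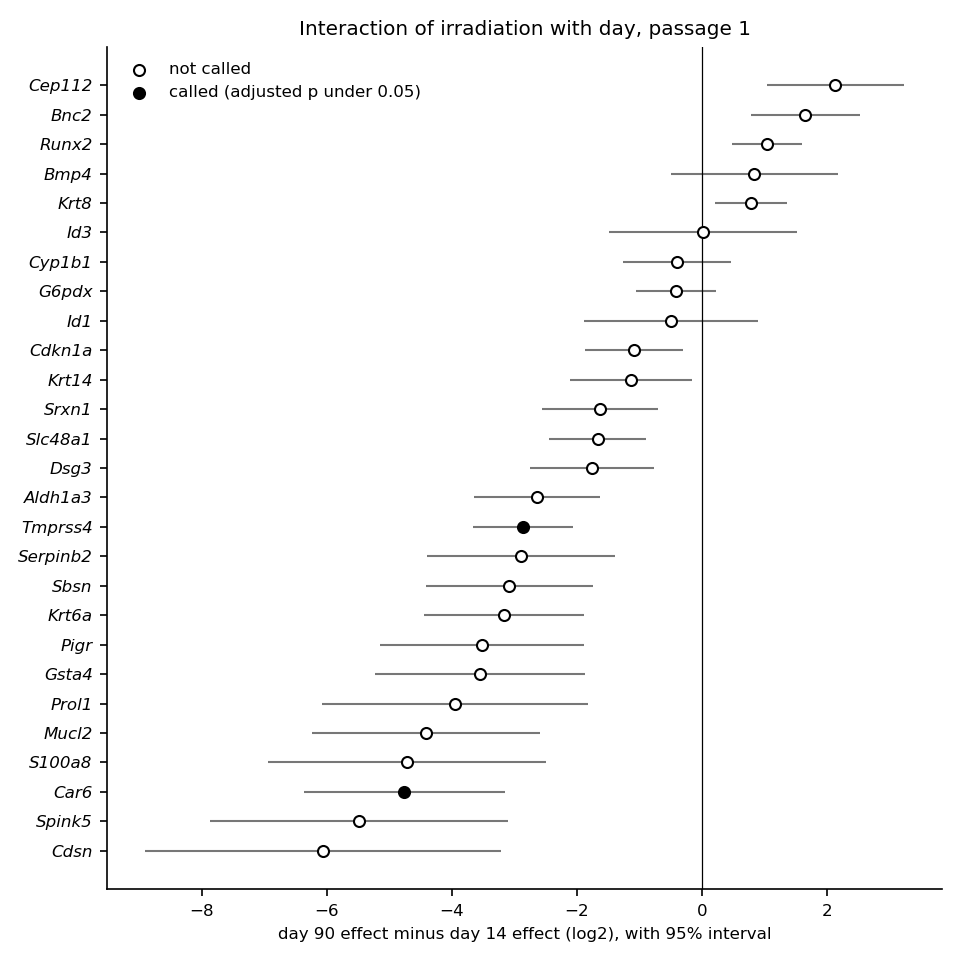
Interaction of IR with day (day 90 effect minus day 14 effect, log2) for 27 genes, with 95% intervals from the edgeR fit. Filled points passed the adjusted test (Tmprss4 and Car6), and open points did not, whether or not their interval reaches 0.

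The 31 genes called higher at day 14 were followed at day 90, whose libraries do not enter the day 14 fold changes but share with them the estimate of spread behind the calls. Their median effect was 2.05 at day 14 and 0.04 at day 90, where all tested genes had a median of 0.00. Of the 31, 17 kept their sign and 14 did not, 17 had a day 90 effect within 0.5 log2 units of 0, and none was called. At an unadjusted p under 0.05, 5 were higher and 2 lower at day 90, and the range ran from -1.89 (Car6) to 2.33 (Prl2c2). Prl2c2 has a near-identical copy, Prl2c3, also among the 31, and how reads were shared between them is not given, so its value is uncertain. Without IR replicate 1 of day 90 the median effect at day 90 over all 36 called genes, signed by the day 14 direction, was 0.33 instead of 0.07.

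The 5 genes called lower at day 14 were Igfbp5, Tgfbr3, Gas1, Pdzd2 and Bnc2, and 4 of them had a negative effect at day 90, with medians of -2.55 and -1.05. Gas1, a membrane protein of growth-arrested and mesenchymal cells, held 276, 175 and 196 CPM in sham and 22.6, 12.3 and 70.3 in IR at day 14, and 144, 156 and 127 against 60.3, 50.2 and 35.5 at day 90. It stood apart at both days (effects -2.55 and -1.54, interaction 1.01 with SE 0.69). Igfbp5, a binding protein of insulin-like growth factors, held 305, 75.7 and 124 CPM in sham and 0.962, 3.78 and 17.8 in IR at day 14, against 23.1, 34.9 and 54.3 and 23.2, 5.29 and 5.57 at day 90. Pdzd2, a scaffold protein, had effects of -1.69 and -1.05. Fbln1, a matrix protein of the fibroblast list that was not called, had effects of -0.42 and -0.94. Bnc2, a zinc finger protein, was the member with the opposite sign at day 90, with -1.39 at day 14 and 0.27 at day 90. Bnc2 and Gas1 are also on the fibroblast list. Of its 4 tested members 2 were called lower at day 14, beside 0.0473% of all tested genes. The medians of the 4 were -1.17 at day 14, -0.60 at day 90 and 0.85 for the interaction.

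Of the 5 genes called at day 90, Krt8, Pim1 and Slc16a11 were higher. Krt8, the luminal keratin, held 128, 171 and 206 CPM in sham and 206, 227 and 218 in IR at day 14, and 134, 96.5 and 117 against 230, 253 and 290 at day 90. It met at 206 CPM at day 14 and stood apart at day 90, with effects of 0.36 and 1.16 (adjusted p 0.0392 at day 90) and an interaction of 0.79 (SE 0.28, adjusted p 0.403). Pim1, a growth-promoting kinase, had effects of 0.73 and 1.58, and its sham libraries held 18.6 to 24.6 CPM at day 90 and 43.2 to 63.1 at day 14. Tiam1, an activator of Rac, and Serp1, a stress-associated protein of the endoplasmic reticulum, were lower at day 90 (-1.02 and -0.80) and had effects of -0.06 and 0.04 at day 14. For Tiam1 the IR libraries of day 90 held 59.8, 58.8 and 47.3 CPM, and the 9 other libraries 92.2 to 131.

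Luminal and basal genes of the duct differed in their medians at day 90. The 22 tested luminal genes had medians of 0.27 at day 14 and 0.51 at day 90. At day 90, 9 were higher and 1 lower at the unadjusted level, beside 5.66% and 7.02% of tested genes. Of the 9, Krt8 was called, where 0.0284% of all tested genes were called higher. At day 14 the unadjusted counts were 2 and 0, beside 5.5% and 5.48%. Their median interaction of 0.36 turned to -0.09 with the Gm42418 share in the model, and was 0.14 with total counts, 0.07 without IR replicate 3 of day 90 and 0.23 without IR replicate 3 of day 14. Krt18, the partner of Krt8, held 348 to 462 CPM in sham and 827 to 948 in IR at day 90, and had effects of 0.16 and 1.14 (adjusted p 0.0553 at day 90, 0.385 for the interaction). Krt19, a keratin of luminal ducts, went the other way at day 90, with 33.3, 9.50 and 8.28 CPM in sham and 6.70, 2.64 and 2.78 in IR.

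The 23 tested basal genes had medians of -0.38 and -0.71, with 12 lower at day 90 and 8 at day 14 at the unadjusted level, beside 7.02% and 5.48% of tested genes. Igfbp5, described above, was called lower at day 14, beside 0.0473% of all tested genes, and no basal gene was called at day 90. Krt14, the main basal keratin, held 3485, 2313 and 2842 CPM in sham and 3509, 4574 and 3085 in IR at day 14, and 5167, 2506 and 2882 against 2258, 2622 and 1341 at day 90. Its groups overlapped at both days, and its effects were 0.37 and -0.76 (interaction -1.13, SE 0.47, adjusted p 0.518). Krt5 had effects of 0.01 and -1.03. Trp63, the transcription factor of basal identity, was below sham without overlap at both days, with effects of -1.02 and -1.32 and an interaction of -0.30 (SE 0.37), which was 0.04 without IR replicate 3 of day 14. Sfn, the stratifin of stratified epithelia, had 245, 239 and 257 CPM in sham and 449, 465 and 338 in IR at day 14, and 557, 424 and 379 against 234, 237 and 174 at day 90, so that IR lay above sham at day 14 and below it at day 90.

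**Figure D5:**
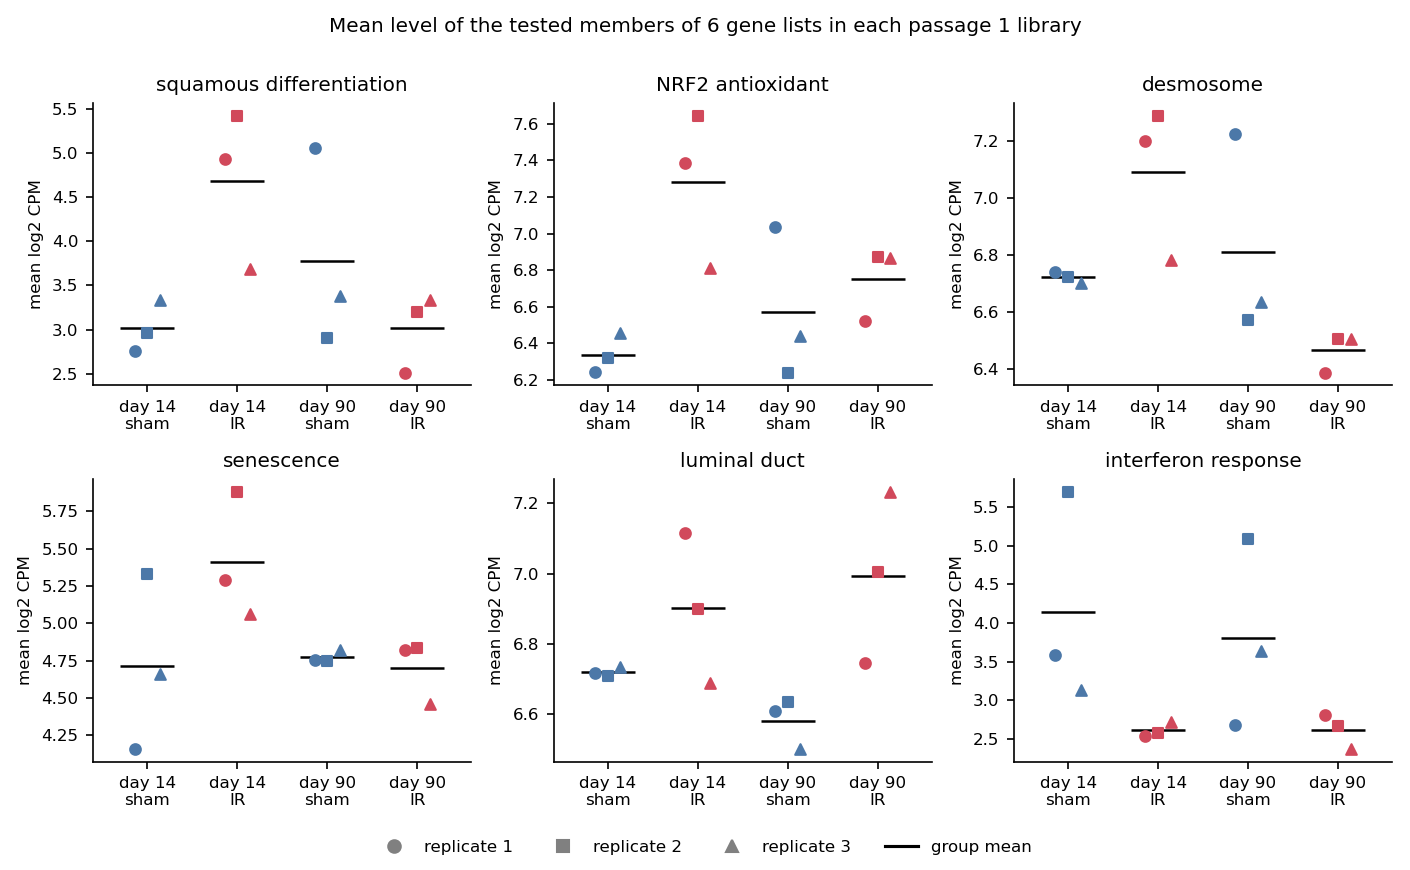
Mean log2 CPM of the tested members of 6 gene lists in each passage 1 library, with the group mean as a line. The squamous and NRF2 lists are high in IR replicates 1 and 2 of day 14 and in sham replicate 1 of day 90; the interferon list is high in sham replicate 2 of each day.

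The positive direction of the interaction held no called gene. The smallest p among genes with at least 5 CPM belonged to Cep112, Bnc2, Cep85, Jcad and Runx2, each with an adjusted p of 0.222. Runx2, a transcription factor of bone and of epithelial progenitors, held 63.5, 61.1 and 58.0 CPM in sham and 48.1, 50.1 and 50.6 in IR at day 14, and 37.8, 38.7 and 37.8 against 48.5, 64.8 and 80.0 at day 90. It stood apart at both days in opposite directions, with an interaction of 1.04 (SE 0.27). Cep112, a centrosomal protein, held 10.8, 5.82 and 7.19 CPM in sham and 3.37, 2.83 and 2.34 in IR at day 14, and 7.33, 4.58 and 3.36 against 10.3, 6.61 and 6.26 at day 90. Of the genes with an unadjusted p under 0.05 at both days, 8 (0.0757%) went from lower to higher and 28 (0.265%) from higher to lower, beside 92 (0.871%) higher at both and 90 (0.852%) lower at both. The 28 include Klk10, a kallikrein of stratified epithelia, at 19.7, 19.8 and 1.88 CPM in IR and 2.03, 0 and 1.03 in sham at day 14, and at 0.516, 0.661 and 0.696 in IR and 20.3, 1.41 and 2.33 in sham at day 90. The 8 include Tedc2, Plekhh3, Utp14b, Sntb2 and Scmh1, with interactions of 0.82 to 1.85.

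Interferon response genes had a negative median at both days. Over 44 tested members it was -2.25 at day 14 and -1.69 at day 90, with 29 and 8 lower at the unadjusted level (5.48% and 7.02% of tested genes), 0 higher, and none called. No member had an interaction at that level, and the median interaction of 0.55 was not stable: it was -0.63 without sham replicate 2 of day 14, 1.51 without sham replicate 2 of day 90 and 2.07 with the Gm42418 share in the model, and 0.27 to 0.92 when each of the other sham libraries was left out in turn. The mean log2 CPM was 3.59, 5.69 and 3.14 in sham and 2.54, 2.58 and 2.72 in IR at day 14, and 2.68, 5.08 and 3.63 in sham and 2.81, 2.67 and 2.37 in IR at day 90. Sham replicate 2 was the highest at each day. Bst2, a membrane protein that tethers viruses, shows this with 46.6, 189 and 31.3 CPM in sham and 9.14, 15.1 and 13.1 in IR at day 14, and 16.9, 115 and 57.4 against 29.4, 31.1 and 6.96 at day 90. Its interaction was 1.37 (SE 1.17), that of Stat2, a transducer of interferon signals, was 1.36 (SE 1.12), and that of Ifi27 was 0.71 (SE 0.38), with adjusted p of 0.831, 0.822 and 0.672.

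Bmp4 itself was low. It held 4.73, 2.33 and 7.70 CPM in sham and 5.77, 6.61 and 12.2 in IR at day 14, and 4.51, 6.69 and 4.40 in sham and 14.4, 15.2 and 17.4 in IR at day 90. The groups overlapped at day 14 and stood apart at day 90, and the effects were 0.74 and 1.57, with an adjusted p of 0.127 at day 90. The interaction was 0.83 (SE 0.64, 95% interval -0.50 to 2.17, adjusted p 0.799). Id1 and Id3, targets of BMP signalling, had effects of 1.36 and 0.87, and of 1.22 and 1.24. Their interactions were -0.49 (interval -1.88 to 0.90) and 0.02 (interval -1.49 to 1.52), and the sign of the latter was negative with total counts, with no filter and with the Gm42418 share in the model. These intervals leave room for changes of more than 1 log2 unit either way for Id3. Id2 was called higher at day 14 (1.25, adjusted p 0.0296 by edgeR) and had an effect of 0.47 at day 90. Its interaction was -0.78 (SE 0.34, adjusted p 0.562). The 10 tested BMP-SMAD target genes had medians of 0.29 at day 14, 0.47 at day 90 and 0.14 for the interaction. Of these 10, 1 was called higher at day 14, beside 0.293% of all tested genes, and none at day 90.

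Passage 2, a later passage of such cultures, offered the same contrast in 12 other libraries. There 1 gene, Ccl8, named for this count alone, was called for the interaction by edgeR (0.00947%) and 543 had an unadjusted p under 0.05 (5.14%), and the difference of the interaction between passages was called for 0 genes, with 451 at the unadjusted level (4.27%). Tmprss4 in passage 2 held 74.5, 76.8 and 95.6 CPM in sham and 66.5, 92.2 and 69.2 in IR at day 14, and 148, 141 and 179 against 58.0, 51.4 and 53.1 at day 90. IR overlapped sham at day 14 and lay below it at day 90, with effects of -0.12 and -1.52, and the passage 2 interaction of -1.40 was not called (adjusted p 0.524). Car6 was low there, at 0 to 4.59 CPM, with IR at 4.59, 1.99 and 2.90 CPM and sham at 0, 1.77 and 0.861 at day 14, and with no count in any IR library of day 90. Krt6a had passage 2 effects of -1.14 and -2.50, and Aldh1a3 0.35 and -0.82, so that neither had the positive day 14 effect of more than 1 log2 unit seen in passage 1. The difference of the interaction between passages was called for neither gene, with an adjusted p of 0.9999 for each by edgeR. The day 14 effects themselves were not tested between passages.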

How the data were processed

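RNA was isolated with DNase treatment and 3′ end libraries were made with the QuantSeq kit, per the labels' protocols. For each library the authors deposited 1 table of raw counts by Ensembl gene, not normalized. Of the upstream steps, bcl2fastq and the build GRCm39 appear in the submitters' processing notes; aligner, counting tool, annotation and strandedness were not given in the sources used here, so overlapping and antisense genes may share reads. A table holds 47643 genes plus 5 summary lines, which were dropped (reads assigned to no gene were 11.5% to 26.5% in passage 1). Symbols were matched by identifier from a reference of an older build, for 47224 genes. Counts on genes came to 1151608 to 3189466 per passage 1 library, a depth at which genes of a few CPM rest on a handful of reads.

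The main test was edgeR's quasi-likelihood F test (edgeR 4.0.16, R 4.3.3), with TMM factors, filterByExpr on the 8 groups (10563 genes), 1 mean per group fitted to all 24 libraries, 16 residual degrees of freedom, Benjamini-Hochberg over tested genes, two-sided, called at 0.05. The SE is the absolute log2 fold change over the square root of F, and the 95% intervals use the t quantile. The lists are summarised by counts and medians. The members, lists and rules were chosen with earlier results of these data known. The rule named 12 fixed genes, the genes called for the interaction with the smallest p beside them up to 5 in a direction, 3 members of each list with a called member or an absolute median interaction of 0.5 or more, the genes called at 1 day with the 6 largest and 4 smallest interactions, and 5 genes in each direction with opposite effects at both days, all but the fixed and list genes at 5 CPM or more. It gave 50 genes. Further genes, and the passage 2 comparison, were chosen after their values were seen. DESeq2 1.42.0, other scalings and filters, the passage 1 libraries alone, the replicate block, a Gm42418 covariate, ribosomal RNA genes left out and each of 12 libraries left out were the 21 alternatives. The script was tested on simulated counts. No pair of replicates agreed within sampling noise (chi-square per degree of freedom 2.07 or more), and each was kept as its own sample. That measure compares the spread with counting noise only, so it cannot show whether replicates are separate animals or cultures. Promoter windows are RefSeq's on GRCm38.p6.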

Additional observations from a re-analysis of the deposited data

Results flagged for a closer look

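Tmprss4 and Car6 had irradiation effects that differed between the days by the test of the difference itself, the interaction in edgeR with Benjamini-Hochberg adjustment. The interaction of Tmprss4 was -2.85 log2 units, from 1.66 at day 14 to -1.20 at day 90, with all 3 IR libraries above sham at day 14 and all 3 below it at day 90. The interaction of Car6 was -4.76, from 2.87 to -1.89, with the same separation of libraries. Car6 was called under 12 of the 21 alternatives, and Tmprss4 under all 21. With only the passage 1 libraries fitted, the adjusted p by edgeR was 0.0701 for Car6 and 0.0261 for Krt6a.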

How the results depend on the processing

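The 2 interaction calls became 24 with DESeq2, 12 with total counts, 196 with no filter (44 of them positive) and 4 with the Gm42418 share as a covariate, and 1 to 23 with single libraries left out, lowest without any of 8 libraries and highest without IR replicate 3 of day 14. Tmprss4 was called under every alternative (adjusted p at most 0.0261), with values from -3.16 to -2.52. The 36 calls at day 14 became 123 with DESeq2, 460 with no filter and 94 with the covariate, and 0 to 146 with single libraries left out (0 to 2 without any of the other 5 libraries of day 14, 146 without its IR replicate 3, 19 without sham replicate 3 and 21 without IR replicate 2 of day 90). The 5 calls at day 90 became 86 with DESeq2, 20 with total counts, 465 with no filter, 53 with only the passage 1 libraries, 0 with the covariate (741 genes at an unadjusted p under 0.05), and 0 to 25 with single libraries left out (25 without its sham replicate 1, 8 without IR replicate 3 of day 14, 0 to 3 without any of the other 10). The cause of these differences was not tested. Total counts moved the median interaction of all genes from 0.01 to -0.22, and the other settings kept it within 0.03 of 0. The interaction of Id3 was -0.18 with total counts, -0.016 with no filter and -0.60 with the covariate, and -0.21 to 0.38 with single libraries left out. With single libraries left out that of Mki67 ran from -0.0068 (without IR replicate 1 of day 90) to 0.74, and that of Trp63 from -0.56 to 0.041 (without IR replicate 3 of day 14).

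The replicate block gave 2 interaction calls, 29 at day 14 and 4 at day 90. The labels do not state whether replicate numbers pair the samples. Same-numbered sham and IR libraries of a day had deviations that correlated at -0.04 to 0.19, over 0.1 in 3 of 6 pairs. Of the 6 IR libraries 3 correlated best with their own number. Same-numbered sham libraries of day 14 and day 90 correlated at 0.08, 0.17 and 0.17. With 3 libraries a group these values cannot settle whether the numbers pair the samples. Depth limits genes of a few CPM, such as Pigr and Cdsn.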

Other observations

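Heat shock chaperones held a small group with opposite effects at the days. Of 19 tested genes 4 had a negative interaction at an unadjusted p under 0.05 and 0 a positive one, beside 4.74% and 3.37% of tested genes, none called, and the median interaction was 0.05. For Bag3, Hspb8 and Dnajb1, which work with Hsp70 in clearing misfolded protein, IR lay above sham without overlap at day 14 and below it at day 90, a course that 0.757% of tested genes share. Bag3 held 109, 116 and 102 CPM in sham and 144, 147 and 123 in IR at day 14, and 161, 168 and 176 against 126, 130 and 131 at day 90. Its effects were 0.34 and -0.39, and its interaction was -0.73 (SE 0.20, adjusted p 0.259 by edgeR). Hspb8 and Dnajb1 had interactions of -0.98 (SE 0.32) and -0.79 (SE 0.28). The larger chaperones did not share this: Hsp90ab1 had effects of 0.04 and -0.04, and Hspa8 0.21 and 0.15.

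Genes of the glucocorticoid response list had a median effect of -0.37 at day 14 and 0.05 at day 90 over 20 tested members. For the interaction 3 were positive and 0 negative at the unadjusted level, beside 3.37% and 4.74% of tested genes, none called. The medium of every group held dexamethasone, a glucocorticoid. Zbtb16, a zinc finger repressor, held 52.7, 34.9 and 22.6 CPM in sham and 16.8, 14.2 and 20.2 in IR at day 14, and 17.8 to 22.2 CPM in the 3 IR libraries and 18.4 to 19.7 in sham at day 90. Gadd45g, a growth arrest gene, had effects of -0.85 and 0.06. Per1, a clock gene, had effects of 0.15 and 1.01. At day 14 its sham libraries held 47.3, 39.0 and 34.9 CPM and its IR libraries 42.8, 55.7 and 37.0. At day 90 sham held 14.7, 16.5 and 27.2 CPM and IR 45.4, 43.6 and 31.3. Every sham library of day 90 was thus below every one of day 14. The interactions of Zbtb16, Gadd45g and Per1 were 1.11 (SE 0.38), 0.91 (SE 0.31) and 0.87 (SE 0.35), with adjusted p of 0.403, 0.403 and 0.494.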
